A study of Mus musculus with 7 samples.

Results

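The T cell receptor (TCR) alpha V and J segments in the deposited table comprised 107 of its 12092 gene symbols, 100 of them V segments and 7 of them J segments. They were taken by name, as every Trav or Traj symbol followed by a number apart from 1 segment that is not analysed here, with the entry of the highest mean kept for the 3 symbols that had more than 1 entry. The RefSeq annotation of GRCm38 (mm10, the build of the files) places all 107 on chromosome 14, the measured V segments starting at 52427967 and the measured J segments ending at 54218842, and lists 130 V and 60 J segments in all. Values are log2(FPKM + 1), where FPKM counts fragments scaled to transcript length and to the mapped fragments of the library.

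RNA was sequenced from double-positive (DP) thymocytes sorted as TCRγδ- CD4+ CD8+ from mice aged 4-5 weeks, on a mixed background of inbred strains, with 1 mouse per library. The WT group had 1 library. The L-DKO group (Id2 f/f Id3 f/f LckCre+, in which Cre under the Lck promoter deletes both inhibitors of E protein transcription factors in developing thymocytes) had 2 libraries. The LP group (L-DKO pTαKO) carried the same floxed alleles and Cre with deficiency of pTα, the invariant chain of the pre-TCR, and had 2 libraries. The pTαKO group, with pTα deficiency and without the Id deletion, had 2 samples, of which 1 (replicate 2) has a column. Which strain's alpha locus each mouse carried is not given in the sources used here. With so few mice, p-values measure the spread between these few libraries.

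An alpha chain is assembled in DP thymocytes, when the RAG recombinase joins 1 of many V segments to 1 of many J segments. Joining starts with V and J segments near each other and, while no receptor is selected, proceeds by repeated rounds to V segments farther upstream and J segments farther downstream. Transcription reads from the promoter of the joined V segment through its J segment to the constant region, Trac, so V, J and Trac sequences end up in the same mRNA. Within the mouse V array a stretch is repeated, and the copies of a segment carry the letter d, the letter n or no letter after the subfamily number. Segments with dv in their names can also be joined to delta segments and so serve both alpha and delta chains, and the Trav15 dv6 segments encode the Vδ6 chains used by a class of γδ T cells.

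Ptcra, which encodes pTα, was measured at 5.06 for WT, 5.75 for pTαKO, 6.35 and 6.62 for L-DKO, and 5.35 and 5.87 for LP, so its transcript was not absent from the libraries labelled as pTα deficient. Which exons the allele removes and which the value covers are not given in the sources used here, so the level does not test that label, and the 3 libraries are called pTα-labelled below. Id3 was 6.22 for WT and 5.25 for pTαKO against 1.91 and 3.32 for L-DKO and 1.96 and 3.18 for LP, lower in every Id-deleted library. Id2 was 3.56 for WT and 1.87 for pTαKO against 1.00 and 0.24 for L-DKO and 1.92 and 0.99 for LP, so LP and pTαKO overlapped for this gene. The defining DP markers were present in all libraries (8 of 10 measured), with the coreceptors Cd4 at 9.08 to 9.55 and Cd8a at 9.31 to 9.57, and the median over the 8 was 8.33 to 8.47 in the pTα-labelled libraries and 8.70 to 8.85 in the others. In each library this median lies between the chemokine receptor Ccr9 and Cd4, so its split is not separate from Ccr9, at 7.53 to 7.70 against 8.17 to 8.24. Gene by gene, the median difference of the pTα-labelled libraries from the others was -0.068. Of the 8 markers 2 separated lower and 0 higher (8.80% and 9.94% of all genes did).

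Sequences of 38 V segments and of none of the 7 J segments could be taken by name from the GENCODE vM1 transcripts (made on the NCBIM37 build). The first pair of sequences shows where a V segment ends. These are the last bases of Trav15d-1-dv6d-1, the segment that stood highest in LP against L-DKO, and of Trav5-4, whose lower level in the pTα-labelled libraries had the smallest p of any segment. Capitals mark the codon of the conserved cysteine, found as the last cysteine codon that follows a tyrosine codon at a distance of 1 codon; the bases after it enter the joint with J.
Trav15d-1-dv6d-1: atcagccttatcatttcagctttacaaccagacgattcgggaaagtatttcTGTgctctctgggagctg
Trav5-4: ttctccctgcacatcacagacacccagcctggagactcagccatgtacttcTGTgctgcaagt

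The next sequences show how alike the copies of a segment are, which bears on every count below. They are the stretches of 90 bases that hold the most differences between the copies, with the differing positions in capitals. Over the whole transcript Trav15d-2-dv6d-2 and Trav15n-2 were identical at 348 of 348 aligned bases, while the unlettered Trav15-2-dv6-2 matched either of them at 339 of 348.
Trav15d-2-dv6d-2: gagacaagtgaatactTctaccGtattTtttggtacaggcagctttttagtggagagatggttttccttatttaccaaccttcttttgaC
Trav15n-2: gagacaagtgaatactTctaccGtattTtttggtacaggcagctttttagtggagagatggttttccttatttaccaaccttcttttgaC
Trav15-2-dv6-2: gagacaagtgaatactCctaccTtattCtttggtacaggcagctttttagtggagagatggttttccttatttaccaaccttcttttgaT
Trav10 and Trav10n differed at 6 of 343 aligned bases, 3 of them in the stretch shown.
Trav10: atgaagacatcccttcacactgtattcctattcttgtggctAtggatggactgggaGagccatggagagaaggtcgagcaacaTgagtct
Trav10n: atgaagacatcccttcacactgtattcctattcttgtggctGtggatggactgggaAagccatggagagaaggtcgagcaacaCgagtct
Trav6-5 and Trav6d-5, the pair of same-numbered copies whose levels lay farthest apart, differed at 15 of 373 aligned bases.
Trav6-5: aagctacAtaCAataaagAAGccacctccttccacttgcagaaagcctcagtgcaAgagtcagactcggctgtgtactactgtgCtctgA
Trav6d-5: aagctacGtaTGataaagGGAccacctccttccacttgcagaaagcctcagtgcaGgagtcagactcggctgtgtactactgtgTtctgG

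The V segments were expressed at a broad range of levels, and the pTα-labelled libraries stood below the others. The median over the 100 V segments was 3.76 for WT, 3.81 and 3.58 for L-DKO, 3.08 for pTαKO, and 2.99 and 2.54 for LP, while the median over the 12063 genes that passed a mean of 0.5 FPKM lay between 3.95 and 4.03 in every library. All 107 segments passed that filter. V segments under 1 on this scale numbered 1 for WT, 2 and 8 for L-DKO, 21 for pTαKO, and 18 and 22 for LP, so the lower medians came with a group of segments near the floor. In bulk RNA, fewer cells that use a segment and less RNA of it per cell cannot be told apart.

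**Figure D1:**
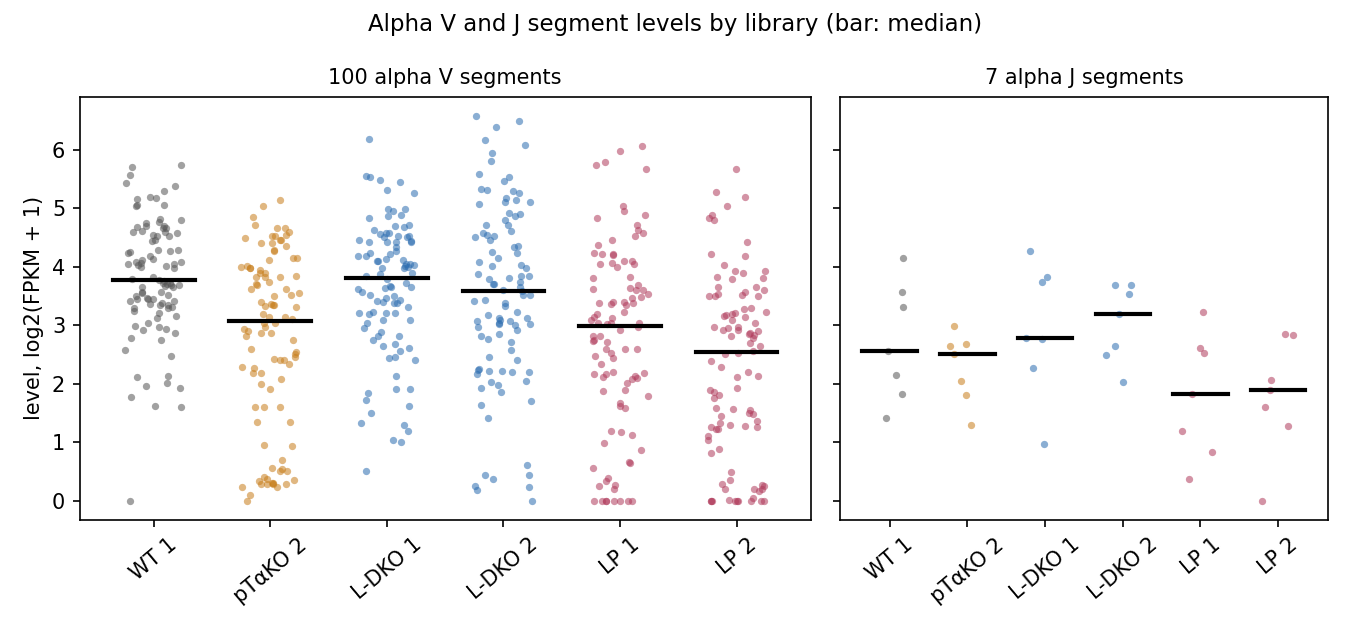
Level in log2(FPKM + 1) of each of the 100 alpha V segments (left) and the 7 alpha J segments (right) in the 6 libraries; 1 point is 1 segment, the bar is the median. The V medians are 3.08 for pTαKO and 2.99 and 2.54 for LP, below 3.58 to 3.81 for WT and L-DKO, and the J medians are 1.82 and 1.89 for LP.

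Summed over the V segments, expression was 1618 FPKM for WT, 1531 and 1802 for L-DKO, 933 for pTαKO, and 1067 and 723 for LP. Trac, the constant region that follows every J, was 556 FPKM for WT, 513 and 621 for L-DKO, 265 for pTαKO, and 322 and 274 for LP. The V sum divided by Trac therefore ran from 2.64 for LP replicate 2 to 3.52 for pTαKO, with WT at 2.91, L-DKO at 2.98 and 2.90 and LP replicate 1 at 3.31, and it did not separate the pTα-labelled libraries from the others. Lower V levels thus went with a lower constant region in the same libraries. In the fit over all genes, Trac was lower by 0.97 ± 0.13 (SE) in the pTα-labelled libraries than in the others (limma, adjusted p = 0.072) and, in LP against L-DKO alone, by 0.92 ± 0.17 (adjusted p = 0.28), neither past the threshold of 0.05.

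The sum was also spread over fewer segments in LP. In WT 26 V segments together made up 50% of the V sum, and in L-DKO 25 and 17 did, against 21 for pTαKO and 15 in each LP library. The 10 highest V segments of a library held 25.2% of its V sum in WT, 27.2% and 36.3% in L-DKO, 27.6% in pTαKO, and 40.1% and 40.6% in LP. Among the entries kept, no library was dominated by 1 segment. The highest held 3.22% of the sum in WT (Trav6-5), 3.69% in pTαKO (Trav6-5) and 4.67% in L-DKO replicate 1 (Trav13-1). It held 5.26% in L-DKO replicate 2 (Trav3d-3), 6.17% in LP replicate 1 (Trav14-2) and 6.93% in LP replicate 2 (Trav3-3). These shares depend on the entry kept, as Trav3-3 had 2 entries. With all entries of a symbol summed, the Trav3 subfamily held 10.4% of the V sum in pTαKO, not 4.48%. In LP replicate 2 it then held 13.6%, not 10.1%.

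Across all libraries the highest means belonged to Trav13-1, Trav14-2, Trav3-3, Trav16, Trav6-5, Trav4-4-dv10, Trav9-4, Trav3d-3, Trav21-dv12 and Trav3n-3, of which 8 are unlettered. Trav13-1, at the top, was 5.56 for WT, 5.04 for pTαKO, 6.18 and 5.94 for L-DKO, and 5.04 and 3.92 for LP, its pTα-labelled values all below the others. Trav9-4 held steadier, at 5.18 for WT, 4.40 for pTαKO, 4.99 and 4.90 for L-DKO, and 4.22 and 4.89 for LP. Trav16 was at 5.06 for WT and 4.46 for pTαKO, 5.54 and 5.59 for L-DKO, and 4.83 and 4.84 for LP.

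Levels of V segments varied far more between mice of 1 group than levels of most genes. Between the 2 L-DKO libraries 55 of the 107 segments differed by 2-fold or more of FPKM + 1 (51.4%, against 11.9% of all genes tested), and between the 2 LP libraries 50 did (46.7%, against 10.6%). The median absolute difference between replicates was 1.06 for the segments and 0.31 for all genes in L-DKO, and 0.93 and 0.29 for LP. Among the 4938 other genes with a mean in the range held by the middle 80% of the segments, the medians were 0.39 and 0.35. The rank correlation of the 100 V segments between replicates was 0.37 for L-DKO and 0.49 for LP, while WT correlated at 0.55 and 0.58 with the L-DKO libraries; these describe segments of shared libraries and carry no test.

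**Figure D2:**
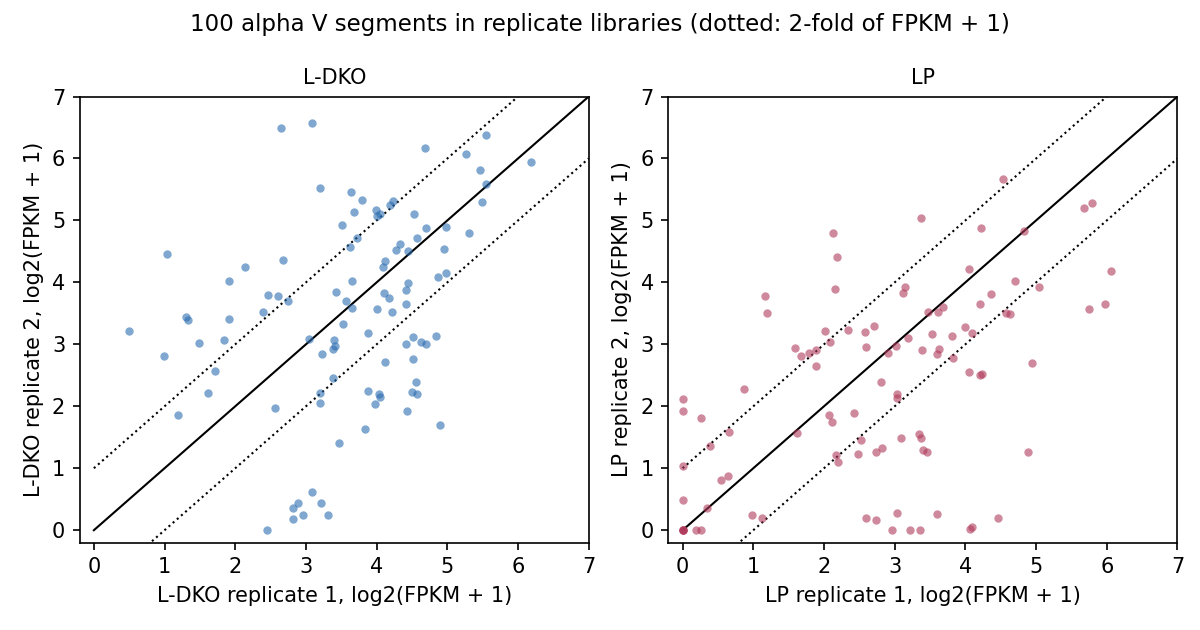
Level of each of the 100 V segments in replicate 2 against replicate 1, for L-DKO (left) and LP (right), in log2(FPKM + 1); the solid line marks equal levels and the dotted lines a 2-fold difference of FPKM + 1. Points scatter widely about the line, and some segments near 3 or 4 in replicate 1 lie near 0 in replicate 2.

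Some segments were far apart between replicates, and a few were near 0 in 1 library and well expressed in the other. In LP, Trav1 was 4.46 in replicate 1 and 0.20 in replicate 2, Trav15d-2-dv6d-2 was 4.07 and 0.02, and Trav7d-5 was 3.36 and listed at 0. In L-DKO, Trav3d-3 was 3.09 and 6.58, Trav7-1 was 3.32 and 0.25, and Trav7-6 was 4.89 and 1.70. These segments were chosen after their values were seen, from those with gaps above 3. Counting segments under 1 in a single library and at 1 or more in the other 5, pTαKO had 8, LP replicate 2 had 7, LP replicate 1 had 4, L-DKO replicate 2 had 2, L-DKO replicate 1 had 1 and WT had 0. Among the 8 of pTαKO were Trav7-2 (0.30 against 5.15 for WT), its copy Trav7d-2 (0.30 against 5.19) and Trav12-3 (0.29 against 3.83), and with 1 library the spread within that group is unknown. In all, 16 segments were listed at exactly 0 in at least 1 library, 15.0% of them against 3.27% of all genes tested.

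Many same-numbered d and n copies had like values. Over the 26 pairs of a d and an n copy, the difference between the copies averaged over the 6 libraries had a median of 0.22, and 14 pairs lay under 0.25; over 28 pairs of a d and an unlettered copy the median was 1.16, and over 25 pairs of an n and an unlettered copy it was 1.38. Other pairs of V segments had a median of 1.48, and 0 of 4871 lay under 0.25. The closest pair was the one with identical transcripts shown above, Trav15d-2-dv6d-2 and Trav15n-2, which differed by 0.076 on average. Trav12d-3 and Trav12n-3, identical at 347 of 347 bases, differed by 0.11.

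Identity or close likeness in sequence did not always go with equal values. Trav6-3 and Trav6d-3 were identical at 344 of 344 bases and differed by 0.55 on average, with the widest gap in L-DKO replicate 2 (3.33 against 2.05). Trav10n and Trav10, which are not identical (6 of 343 bases differ), had levels 1.66 apart on average. Trav10n was 3.66 for WT, 3.82 for pTαKO, 3.09 and 0.61 for L-DKO and listed at 0 in both LP libraries. Trav10 was 4.27, 3.89, 4.44 and 3.98, and 3.09 and 1.49, in the same order. How fragments that match several copies were divided is not given in the sources used here, so values of near-identical copies are uncertain one by one, and the d and n copies are not separate evidence. With each same-numbered d and n pair summed into 1 unit, the 107 segments became 81 units.

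**Figure D3:**
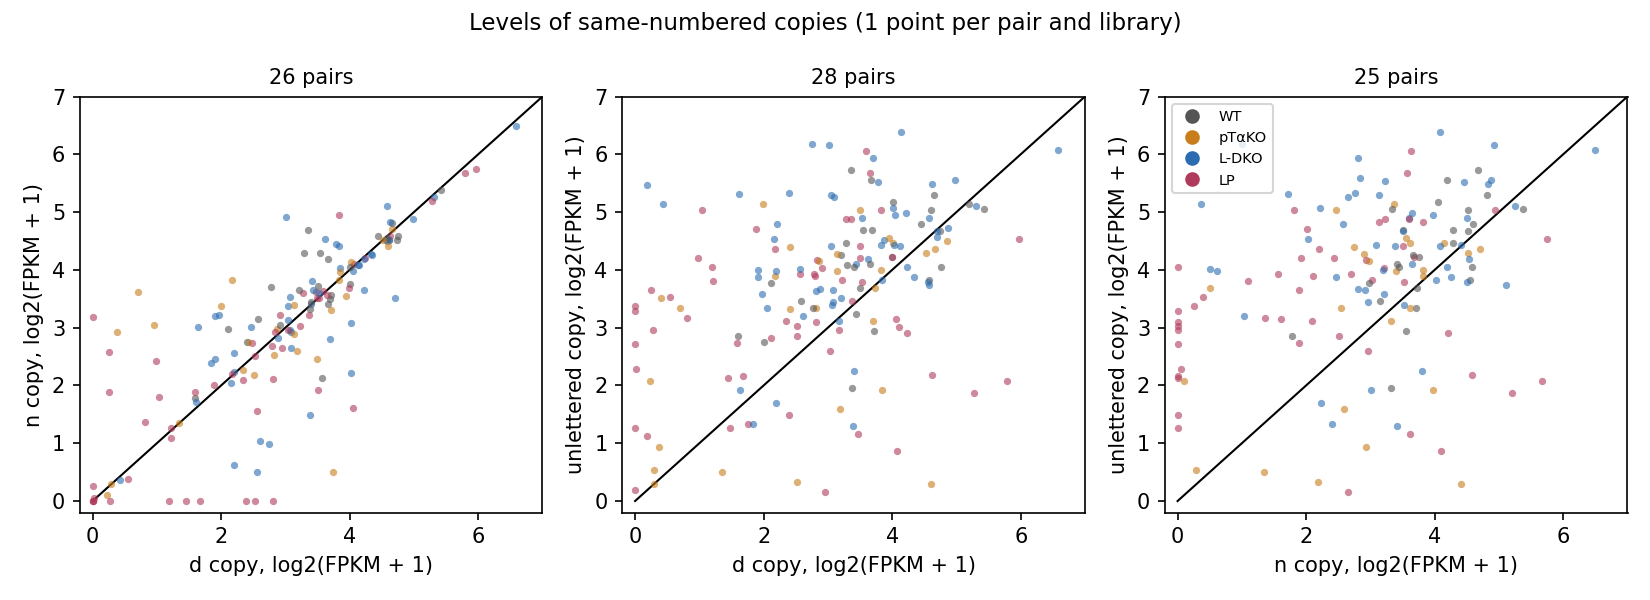
Level of 1 copy against the other in log2(FPKM + 1) for same-numbered copies: d against n (26 pairs), d against unlettered (28 pairs) and n against unlettered (25 pairs); each pair gives 1 point per library, coloured by group. Many d and n points lie near the line of equal levels, others lie far off it, and points that involve the unlettered copy scatter widely.

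Against L-DKO, LP had lower levels of most alpha segments, the comparison of the pTα label among Id-deleted libraries. Below 0 were 86 of the 107 (49.9% of all genes were), and in 56 both LP libraries lay under both L-DKO libraries (52.3%, against 22.2% of all 12063 genes), with 50 of those at least 2-fold lower (46.7%, against 2.91% of all genes). In the opposite direction the libraries separated for 3 segments (2.8%, against 22.3% of all genes). The median over the segments was -1.12, beside 0.0014 over all genes. No single segment passed limma's adjusted p of 0.05, a threshold that 0.00829% of all genes passed in each direction; at an unadjusted p under 0.05, 40 segments were lower and 2 higher, against 4.94% and 6.15% of all genes. With d and n pairs summed, 68 of the 81 units were below 0, 44 separated lower, and the median was -1.09.

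The segments with the widest gaps came from the Trav6, Trav4, Trav13 and Trav9 subfamilies. Trav6-4 was 3.64 and 5.46 for L-DKO against 1.12 and 0.19 for LP, with 2.75 for WT and 3.51 for pTαKO. Trav4-3 was 4.45 and 4.51 for L-DKO against 0.65 and 1.59 for LP, with 3.79 for WT and 2.87 for pTαKO; its difference of -3.36 ± 0.41 (SE) had a limma adjusted p of 0.17. LP lay below all other libraries for both segments. Trav6d-5, shown above, was 4.70 and 3.01 for L-DKO, 0.98 and 0.25 for LP, 3.35 for WT and 1.99 for pTαKO, a difference of -3.24 ± 0.67 (adjusted p = 0.32). Trav9n-2 was 3.38 and 2.92 for L-DKO and listed at 0 in both LP libraries, as was its copy Trav9d-2, at 3.04 and 3.09 for L-DKO. Both were at 1.35 for pTαKO. WT was 1.78 for Trav9n-2 and 1.60 for Trav9d-2, so L-DKO also stood above WT in both copies. Trav13n-2 was 4.53 and 5.11 for L-DKO and 2.96 for LP replicate 1, and was listed at 0 for LP replicate 2.

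By subfamily, all 14 Trav6 segments were below 0 (median -1.45, 9 separated lower), as were all 5 of Trav4 (median -1.44, 4 separated) and all 3 of Trav10 (median -1.85, 2 separated). The Trav6 subfamily held 13.4% and 15.8% of the V sum in L-DKO, 15.1% in WT and 21.6% in pTαKO, against 5.08% and 9.78% in LP, whose libraries were below all others. Trav9 had 7 of 9 below 0 with 6 separated, and Trav13 had 9 of 12 with 7 separated. Smaller medians were those of Trav7 (10 of 14 below 0, median -1.02), Trav12 (8 of 10, median -0.61), Trav14 (6 of 9, median -0.85) and Trav3 (3 of 4, median -0.30). Of the unlettered copies 37 of 40 were below 0, of the d copies 24 of 33 and of the n copies 18 of 27; the copy classes also occupy successive stretches of the locus, so class and position cannot be told apart. These are descriptions, since segments of 1 library are not replicates of a group.

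**Figure D4:**
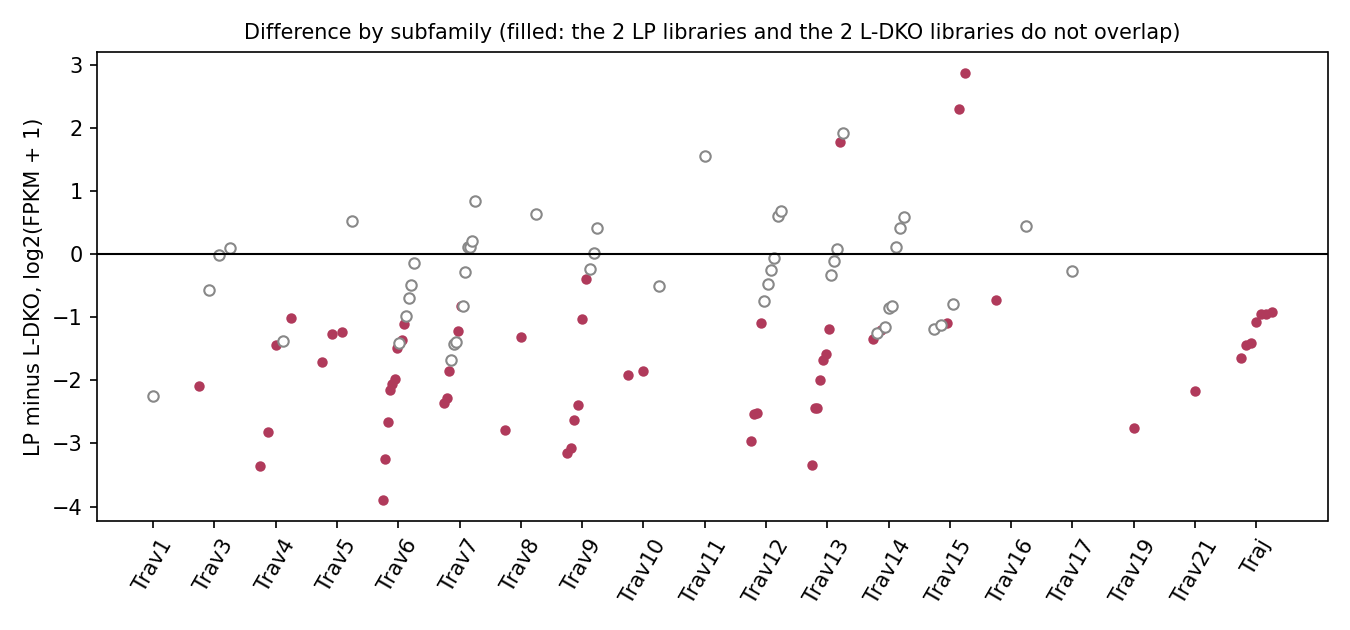
Difference LP minus L-DKO in log2(FPKM + 1) for every segment, by V subfamily with the J segments at the right; filled points are segments whose 2 LP and 2 L-DKO libraries do not overlap. All Trav6, Trav4, Trav10 and Traj points lie below 0, and the filled points above 0 are 2 of Trav15 and 1 of Trav13.

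In the opposite direction, 2 Trav15 segments stood higher in LP. Trav15d-1-dv6d-1 was 2.58 for WT, 3.85 for pTαKO and 1.91 and 3.41 for L-DKO, and 5.79 and 5.28 for LP, a difference of 2.87 ± 0.55 (SE) against L-DKO (limma, adjusted p = 0.29). Its copy Trav15n-1, whose name carries no dv, was 3.15, 3.97, and 2.46 and 3.80, and 5.67 and 5.20 for LP, a difference of 2.30 ± 0.50 (adjusted p = 0.32). Both LP libraries were above every other library for both copies, and pTαKO was next highest. As a d and n pair they count as 1 observation. Together the 6 Trav15 segments made up 3.24% of the V sum in WT, 2.72% and 2.80% in L-DKO, 6.51% in pTαKO, and 13.1% and 11.1% in LP.

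The other Trav15 segments did not follow. Trav15-1-dv6-1, the unlettered copy of the raised pair, was 3.45 for WT, 1.92 for pTαKO, 3.88 and 2.24 for L-DKO, and 2.08 and 1.86 for LP. Trav15-2-dv6-2 was 2.93, 4.15, 1.30 and 3.44, and 0.87 and 2.28, and the identical copies Trav15d-2-dv6d-2 and Trav15n-2 were at 4.07 and 4.10 for LP replicate 1 and at 0.02 and 0.05 for LP replicate 2. The third segment that separated higher in LP, Trav13-3, was 1.33 and 3.39 for L-DKO and 4.05 and 4.21 for LP, with 3.77 for WT and 0.94 for pTαKO. Its difference of 1.77 ± 0.72 did not pass the test (adjusted p = 0.47), and WT lay close under LP.

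Trdc, the delta constant region, had the same order of groups as the Trav15 pair. It was 4.31 for WT, 4.67 for pTαKO, 4.36 and 4.37 for L-DKO, and 4.83 and 5.13 for LP, highest in LP and next in pTαKO, and its difference of 0.62 ± 0.20 from L-DKO to LP was not past the threshold (adjusted p = 0.40). Over the list of 9 γδ T cell markers, all measured, the summed level was 32.5 FPKM for WT, 126 for pTαKO, 37.1 and 31.5 for L-DKO, and 48.2 and 71.1 for LP. Of the 9, 5 separated higher in LP than in L-DKO and 1 (Il17rb) lower (22.3% and 22.2% of all genes did), none past the test. The list sum and the gamma constant regions did not follow the order of the Trav15 pair: Trgc2 was highest for pTαKO (6.25), and Trgc1 was 2.99 for pTαKO, 1.98 and 0.15 for L-DKO, and 0.20 and 2.02 for LP. The sort removed cells that stain for TCRγδ, and the part of γδ lineage cells in the Trav15 values was not tested.

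Segments that serve both alpha and delta chains did not move as 1 class. Of the 9 with dv in their names, 7 were below 0 for LP against L-DKO with a median of -1.02, near the median of -1.20 of the other 91 V segments. Trav21-dv12, the measured V segment nearest to the J segments, was 5.70 for WT, 4.65 for pTαKO, 5.46 and 5.81 for L-DKO, and 2.12 and 4.80 for LP. Trav4-4-dv10 was 4.66, 4.54, 5.48 and 5.29, and 4.71 and 4.03. Trav6-7-dv9 was 5.30, 4.29, 4.05 and 5.11, and 3.12 and 3.83, and in each of these 3 segments LP lay below L-DKO. Trav13-4-dv7 (4.69, 3.34, 4.00 and 5.07, 3.37 and 5.04) and Trav14d-3-dv8 (3.29, 2.82, 2.61 and 3.78, 4.05 and 2.56) overlapped between the groups. The 9 together held 11.2% of the V sum in WT, 9.79% and 11.2% in L-DKO, 12.8% in pTαKO, and 12.7% and 18.9% in LP.

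Trav11d was 1.92 for WT, listed at 0 for pTαKO, 2.95 and 0.24 for L-DKO, and 3.39 and 2.90 for LP. The L-DKO replicates lay farther apart than the LP libraries did from L-DKO replicate 1.

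Both LP libraries lay under both L-DKO libraries for each of the 7 measured J segments (22.2% of all genes did), by 0.92 to 1.65 (median -1.08). Trac, which ends up in the same mRNA, was lower by 0.92 in this comparison, so the J count is not separate from the Trac difference. Relative to Trac, Traj43 alone of the 7 turned above 0 (0.00282). The FPKM summed over the 7 and divided by Trac was 0.072 and 0.079 for LP and 0.088 to 0.12 in the other libraries. The part of Trac in the J differences was not tested. Traj1, the J segment farthest downstream, was 4.16 for WT, 2.99 for pTαKO, 4.27 and 3.68 for L-DKO, and 3.22 and 2.84 for LP. Traj17 was 3.56, 2.68, 3.83 and 3.68, and 2.61 and 2.06, a difference of -1.42 ± 0.33 between LP and L-DKO (adjusted p = 0.32). Traj27 (3.31, 2.64, 3.75 and 3.53, 2.52 and 2.85) and Traj33 (2.55, 1.29, 2.77 and 3.19, 1.82 and 1.27) had the same order. Every pTα-labelled library lay below every other library in these 4 segments and in Traj43, as in 8.80% of all genes.

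The J segments farther upstream had lower FPKM values. J segments are short and unlike in length: Traj1 spans 54218814 to 54218842 and Traj50 54167590 to 54167652. The median length over all members was 502 bases. As FPKM are scaled to length, values of different J segments may not be comparable, and the part of length in this order was not tested. Traj41 was 1.82 for WT, 2.51 for pTαKO, 2.77 and 2.49 for L-DKO, and 0.37 and 1.60 for LP. Traj43 was 2.14, 1.80, 2.27 and 2.65, and 1.19 and 1.89, and Traj50 was 1.40, 2.04, 0.97 and 2.02, and 0.83 and listed at 0. For Traj41 and Traj50, pTαKO overlapped WT and L-DKO. From Traj1 to Traj50 the mean over the libraries ran 3.53, 3.07, 3.10, 2.15, 1.93, 1.99 and 1.21, and the 7 stand for 60 annotated J segments. Summed over the 7 and divided by Trac, the J level was 0.088 for WT, 0.11 for pTαKO, 0.12 and 0.089 for L-DKO, and 0.072 and 0.079 for LP.

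Holding the Id label fixed, the 3 pTα-labelled libraries were compared with the other 3. Below 0 were 91 of the 107 segments (49.1% of all genes were), with a median of -1.08, and 38 separated lower (35.5%, against 8.80% of all genes), 34 of them by 2-fold or more (31.8%, against 1.21%), and 2 separated higher, the Trav15 pair (1.87%, against 9.94%). Past limma's adjusted p of 0.05 was none, against 0.0995% of all genes lower and 0.166% higher; at an unadjusted p under 0.05, 46 segments were lower and 2 higher, against 5.67% and 7.19% of all genes. Nearest to the threshold were 2 segments. Trav5-4, chosen after its values were seen, was 4.05 for WT and 5.31 and 4.79 for L-DKO against 2.08 for pTαKO and 3.52 and 3.16 for LP, lower by 1.80 ± 0.23 (SE) with an adjusted p of 0.065. Trav8d-2 was 3.56 for WT and 3.38 and 2.46 for L-DKO, against 0.95 for pTαKO, 0.26 for LP replicate 1 and listed at 0 for LP replicate 2, lower by 2.73 ± 0.36 with an adjusted p of 0.069; summed with its n copy, the difference was -0.72. Without LP replicate 1, 1 segment passed, Trav7-5, which was lower (0.0912% of all genes passed lower and 0.0414% higher). Trav7-5 was 4.89 in the library left out and 0.54 and 1.26 in the other pTα-labelled libraries, against 4.22 to 4.96 elsewhere.

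The widest gaps in that comparison were those of the copies Trav7d-2 (-3.21 ± 0.69, adjusted p = 0.18) and Trav7-2 (-3.14 ± 0.75, adjusted p = 0.22). Trav7d-2 was 5.19 for WT and 4.70 and 4.87 for L-DKO, against 0.30 for pTαKO and 3.37 and 1.48 for LP. Next came Trav4-2, at 3.98 for WT and 3.72 and 4.71 for L-DKO against 0.23, 2.60 and 0.20. Trav6n-6 was 3.72 for WT and 4.42 and 3.01 for L-DKO, against 0.50 for pTαKO, 2.11 for LP replicate 2 and listed at 0 for LP replicate 1. In these segments the lowest pTα-labelled library differed from one to another. All 4 Trav5 segments were below 0 in this comparison (median -1.84, 3 separated), and so were all 5 of Trav4. All 4 of Trav3 were too, with 1 of the 2 entries of Trav3-3 kept. With all entries of a symbol summed, 90 of the 107 segments were below 0, not 91. Trav3 then held 10.4% of the V sum in pTαKO, not 4.48%, so the Trav3 count may depend on the entry kept.

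**Figure D5:**
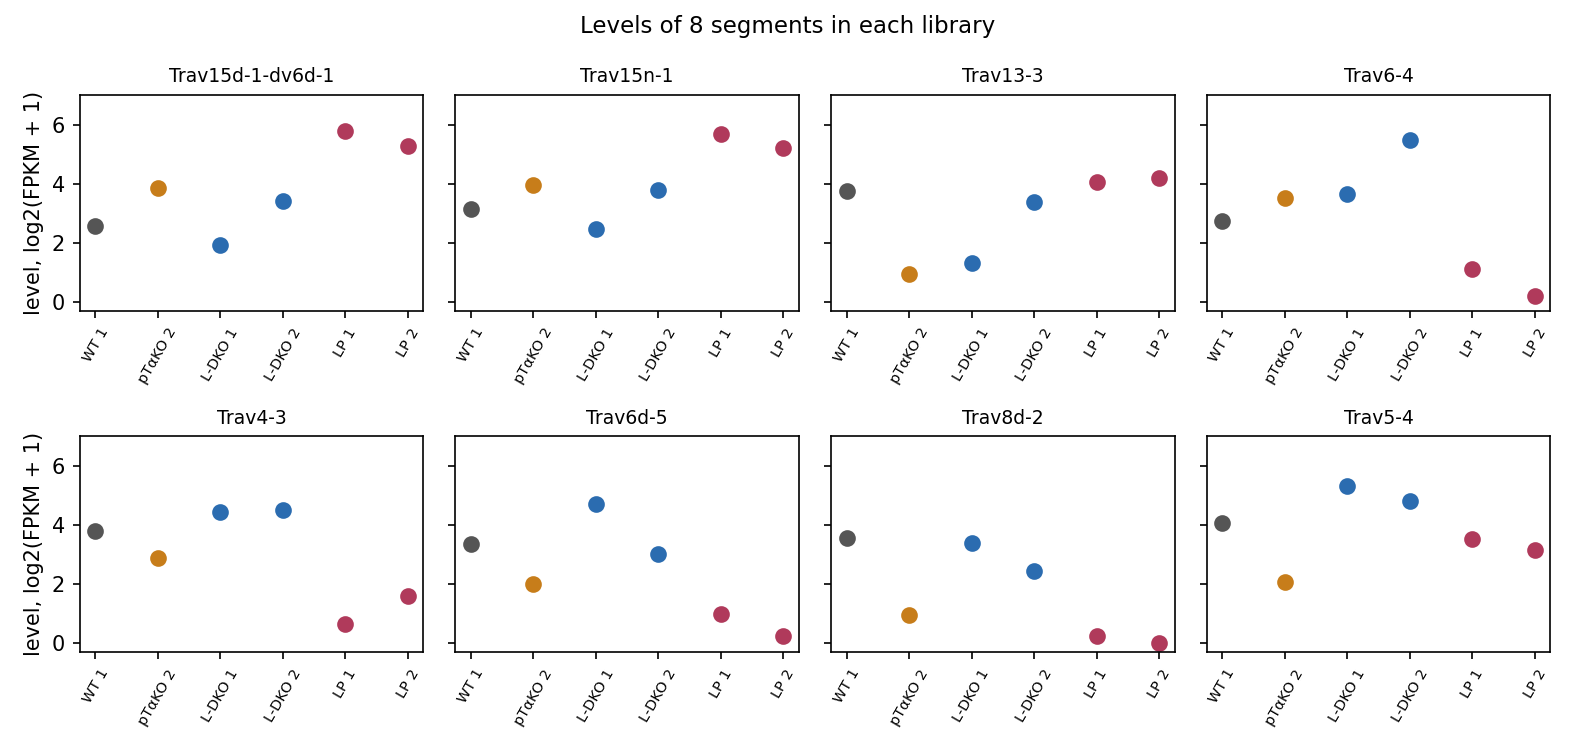
Level in log2(FPKM + 1) of 8 segments in each of the 6 libraries, 1 point per library and 1 colour per group. Trav15d-1-dv6d-1 and Trav15n-1 are highest in the LP libraries (5.20 to 5.79), Trav6-4, Trav4-3 and Trav6d-5 are lowest there, and Trav8d-2 and Trav5-4 are lower in all 3 pTα-labelled libraries than in WT and L-DKO.

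pTαKO and WT, with 1 library each, were compared by their values, with no test. Of the 107 segments 48 were at least 2-fold lower in pTαKO (4.63% of all genes were) and 5 at least 2-fold higher (7.77% of all genes), with a median of -0.87. This pair of libraries shares none with the comparison of LP with L-DKO.

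Deletion of Id2 and Id3 without the pTα label left the segments spread on both sides of 0. In L-DKO against WT, 67 of 107 were below 0 (47.6% of all genes were) with a median of -0.14. In all 28 separated lower (29.7% of all genes did) and 27 higher (34.9%), none passed the adjusted test (0.0249% of all genes lower and 0.0166% higher did), and 1 lower and 4 higher had an unadjusted p under 0.05 (1.93% and 2.41% of all genes). With 1 library on each side, separation is only the sign of the difference: without L-DKO replicate 1 it was lower for 53 segments (45.3% of all genes), and leaving out L-DKO replicate 2 gave 55 (49.2%). WT is 1 library, so the test takes the spread from the L-DKO and LP libraries, as do all tests against WT or pTαKO. Trav6-4 was higher in L-DKO (3.64 and 5.46 against 2.75), as was Trav12-1 (3.67 and 5.14 against 1.95). Of the 9 Trav9 segments, d and n copies among them, 5 separated higher and 2 lower (median 1.18). Lower were Trav13n-1 (0.99 and 2.81 against 4.18), Trav12n-1 (2.81 and 0.36 against 3.32) and Trav6-1 (2.44 and listed at 0, against 2.97).

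With the pTα label held fixed, the 4 Id-deleted libraries against the other 2 gave 7 segments that separated lower (5.87% of all genes did) and 0 that separated higher (6.94%), with a median of -0.26. The count of lower segments was 4 with d and n pairs summed (5.86% of all genes). It was 12 without WT (21.5% of all genes), 21 without pTαKO (14.2%), 15 without L-DKO replicate 1 (8.46%) and 17 when L-DKO replicate 2 was left out (10%). No segment passed limma's adjusted test, which 0% of all genes passed lower and 0.0166% higher, and at an unadjusted p under 0.05 there were 5 lower and 4 higher (3.1% and 3.32% of all genes). Among the 7 were Trav6d-3 (3.44 for WT and 4.85 for pTαKO, against 3.20 and 2.05 for L-DKO and 2.12 and 1.75 for LP) and Trav13n-4 (4.28 and 3.61, against 3.20 and 2.21, and 0.26 and 1.81). Trav12d-3 was at 4.58 and 4.60, against 3.43 and 3.84, and 4.23 and 2.52.

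LP stood lower than WT in 92 of the 107 segments (47.4% of all genes were lower; median -1.15), with 75 separated lower (31.7% of all genes did) and 7 higher (35.8%). None passed the adjusted test (0.0332% of all genes lower and 0.0249% higher did), and 30 lower and 2 higher had an unadjusted p under 0.05 (2.35% and 3.74% of all genes). Trav19, a segment with no copies, was 4.14 for WT and 0.65 and 0.88 for LP, with 2.40 for pTαKO and 2.67 and 4.36 for L-DKO, a difference of -3.37 ± 0.77 (adjusted p = 0.49). Trav8d-2 differed by -3.43 ± 0.58 (adjusted p = 0.31), and by -1.01 when summed with its n copy. Trav3-1, at 4.04 against 0.34 and 0.35, differed by -3.69 ± 0.92 (adjusted p = 0.55).

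LP and pTαKO differed in both directions. Of the segments 46 separated lower in LP (35.3% of all genes did) and 25 higher (33.9%), with a median of -0.26, and none passed the adjusted test (0.0249% of all genes lower and 0.0746% higher did). At an unadjusted p under 0.05 there were 12 lower and 8 higher (3.29% and 2.9% of all genes). Without LP replicate 1, when separation is only the sign of the difference, the lower count was 70 (50.7% of all genes). Trav12-3, near 0 for pTαKO (0.29), was 2.91 and 2.85 for LP (2.59 ± 0.36, adjusted p = 0.26), and Trav9-2 was 0.50 for pTαKO and 2.71 and 3.29 for LP. Trav6d-3 was 4.85 for pTαKO and 2.12 and 1.75 for LP (-2.92 ± 0.59, adjusted p = 0.50). Whether the Id difference depended on the pTα label was tested as an interaction, and no segment passed (0.00829% of all genes passed lower and 0.0414% higher). At an unadjusted p under 0.05, 7 segments were lower and 3 higher in it, against 2.50% and 1.96% of all genes.

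The V segments nearest to the J cluster had higher median levels than those farthest from it. In groups of 20 segments ordered along the chromosome, the median of the group nearest to the J segments was 4.30 for WT, 3.94 for pTαKO, 4.30 and 4.65 for L-DKO, and 3.27 and 3.82 for LP, against 3.37, 2.23, 3.39 and 2.01, and 2.92 and 1.62 in the group farthest from them. The medians rose from group to group in WT, pTαKO and L-DKO replicate 1, and not in L-DKO replicate 2 or LP. In LP replicate 1 they were 2.92, 2.46, 3.09, 2.72 and 3.27 from farthest to nearest. Rank correlations of level with order in the locus were 0.12 (LP replicate 1) to 0.47 over the 6 libraries. The difference of LP from L-DKO had no such trend: its medians from the farthest to the nearest group were -0.50, -1.39, -1.23, -1.42 and -0.82, with a rank correlation of -0.068 over the 100 segments. Segments below 0 numbered 12, 17, 13, 18 and 19 of 20. The nearest group holds only unlettered copies, so position and copy class cannot be told apart there. Neighbouring segments share subfamilies, copies and libraries, so these are descriptions.

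Genes that act in alpha rearrangement and its transcription were also compared between LP and L-DKO. None passed the adjusted test, which 0.00829% of all genes passed in each direction, so this says little about them. Of the recombinase and end-joining list 10 of 12 genes were measured, with a median of -0.012. Of these, 3 separated higher and 2 lower in LP against L-DKO (22.3% and 22.2% of all genes did). Rag2, a subunit of the recombinase, was 6.50 to 6.96 over all libraries, and Dntt, which adds bases at the joint, was 9.52 to 9.73. Xrcc4, of the end-joining ligase complex, was 3.93 and 4.02 for L-DKO and 4.85 and 4.69 for LP. Of the 16 of 19 measured enhancer and locus factors, 9 separated lower and 3 higher (22.2% and 22.3% of all genes did), with a median of -0.26. Ikzf1, a zinc finger factor of lymphocytes, was 8.03 and 7.93 for L-DKO and 7.51 and 7.57 for LP. Bcl2l1, whose product prolongs DP survival and so the time open to rearrangement, was 7.41 and 7.41 for L-DKO and 7.75 and 7.60 for LP (0.27 ± 0.13, adjusted p = 0.55).

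Most genes of the other receptor chains were at like levels in all libraries. Of 8 genes of the TCR and pre-TCR chains, among them Trac, of the alpha chain itself, and Ptcra, of the pre-TCR, none passed the test in any comparison. Trbc1, a constant region of the beta chain, ranged from 10.84 to 11.07 and Cd3g from 9.09 to 9.35. Trbc2 was 11.54 and 11.73 for L-DKO and 11.34 and 11.14 for LP, a difference of -0.39 ± 0.23 (adjusted p = 0.58). Trac was 9.01 and 9.28 for L-DKO and 8.34 and 8.10 for LP, with a difference close to that of Ptcra (-0.88 ± 0.23, adjusted p = 0.35).

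Genes of the lists for other cell types also differed between the libraries. Over 8 markers of double-negative thymocytes, all measured, the median level was 1.27 for WT, 2.10 and 1.30 for L-DKO, 3.98 for pTαKO, and 3.23 and 3.65 for LP. In the pTα-labelled libraries 6 of the 8 separated higher (9.94% of all genes did), such as Notch1 (2.92 to 3.89 against 0.46 to 0.85). Il2ra (3.31 to 5.01 against 1.81 to 3.44) and Kit (0.61 to 1.45 against 0.65 to 1.56) overlapped. Summed over the same list the range was 282 to 348 FPKM in the pTα-labelled libraries and 36.0 to 126 FPKM in the others. Most of that sum was Dtx1 (7.30 to 7.70 against 3.67 to 5.73) and Notch3 (6.34 to 6.56 against 4.22 to 5.92). Over the 9 of 10 measured myeloid markers the sum was 314 FPKM for pTαKO, 77.8 and 91.0 for LP, and 28.4 to 39.0 for WT and L-DKO. The 7 of 9 measured markers of single-positive and innate-like T cells summed to 212 and 173 FPKM for LP and to 32.0 to 68.6 in the other libraries. Most of the sum for LP was Gzma, at 7.51 and 7.19 for LP and 4.66 to 5.95 elsewhere. The median over the 7 was 2.47 and 2.44 for LP and 0.92 to 2.00 elsewhere. Of the 7, 5 separated higher and 1 lower in LP against L-DKO (22.3% and 22.2% of all genes did). Of 8 B cell markers 2 were measured, and only 1 of them stood apart in LP. Jchain was 4.72 and 4.94 for LP and 0.52 to 2.46 elsewhere. Cd79b was 5.08 and 5.18 for LP, 4.50 and 5.19 for L-DKO, 4.22 for WT and 5.44 for pTαKO. Of the 8 measured DP markers 4 separated lower and 0 higher in LP against L-DKO (22.2% and 22.3% of all genes did). None passed the limma test, with Ccr9 at -0.57 ± 0.13 (adjusted p = 0.32). The part of these lists in the V and J levels was not tested, nor whether their transcripts came from other cells or from the sorted DP cells.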

How the data were processed

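The submitters' processing notes name Trimmomatic 0.32, TopHat2 2.0.9 and Cufflinks 2.2.0 on mm10 (GRCm38), for poly(A) RNA read as paired ends. The authors deposited 1 table of gene FPKM on a log2 scale, read here as log2(FPKM + 1), in which 0 is the lowest value; how genes were filtered and how shared fragments were divided are not given in the sources used here. FPKM hold no depth, so counting error is unknown. The deposited columns of group means (2) and of differences between groups (3) were not used. Of 7 labelled samples 6 have a column; pTαKO replicate 1 is not analysed here. Hyphens were restored in 297 symbols through RefSeq.

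Genes with a mean of at least 0.5 FPKM (12063) were fitted with limma 3.58.1 (R 4.3.3; trended empirical Bayes, 2 residual degrees of freedom for group means, 3 for the additive model of Id and pTα labels; WT and pTαKO, with 1 library each, take the spread of the others), with Benjamini-Hochberg adjustment over all genes and a threshold of 0.05. The fit was checked on simulated data. Libraries do not overlap where all of 1 side lie beyond all of the other. Sides holding 1 library make this easier, as the shares of all genes show. Named were all J segments, the 10 highest V segments, the dv segments, Trav11d, and up to 5 segments per direction with the widest differences among those without overlap; others are said to be chosen after their values were seen, as were copies with sequences to compare. Members and gene lists were chosen with earlier results of these data known. Replicate numbers did not pair libraries (correlation of deviations 0.035).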

Additional observations from a re-analysis of the deposited data

How the results depend on the processing

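The comparison of LP with L-DKO kept its direction under all 16 alternatives run for it: the median difference of the segments lay below 0 in each. Leaving out the trend, fitting only the groups compared, adding a replicate block or dropping the filter cannot move that median. Those alternatives are therefore no check of it. Values depended on the scale. With a pseudocount of 10 FPKM the medians were -0.48 for LP minus L-DKO, -0.48 for LP minus WT, -0.060 for LP minus pTαKO, -0.50 for the pTα label and -0.043 for the Id label; with 0.1 FPKM they were -1.39 for LP minus WT and -1.26 for the pTα label. Relative to Trac, which moves the median of all genes by 0.93 in LP minus L-DKO and by 0.98 for the pTα label, the medians were -0.19 for LP minus L-DKO, -0.25 for LP minus WT and -0.10 for the pTα label, and 22, 42 and 5 segments separated lower, against 1.04%, 2.32% and 0.158% of all genes. On that scale 15 segments passed the test in LP minus L-DKO (10 lower, 5 higher, while 0.257% of all genes were called lower and 36.7% higher) and 16 for the pTα label (9 lower, 7 higher, while 0.216% were called lower and 70.4% higher). The differences of Traj43 in LP minus L-DKO (0.00282), and of Traj50 (0.46), Traj43 (0.24), Traj41 (0.10) and Traj27 (0.11) for the pTα label, turned above 0 relative to Trac, and the shift of the scale by Trac itself makes that change. Summing d and n copies, chosen after seeing the data, left 4 segments lower by the Id label. With all entries of a symbol summed, 90 of the 107 segments were below 0 for the pTα label. Of these segments 37 then separated lower (34.6%, against 8.68% of all genes).

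Leaving out each L-DKO and LP library in turn, and for the pTα and Id labels also WT and pTαKO (added after seeing the data), the median lay between -1.34 and -0.97 for LP minus L-DKO, -1.43 and -0.95 for LP minus WT, -0.14 and 0.0020 for L-DKO minus WT, -0.30 and -0.13 for LP minus pTαKO, -1.12 and -0.99 for the pTα label, -0.26 and -0.089 for the Id label, and -0.17 and -0.0053 for the interaction. Segments separated lower numbered 64 to 75, 75 to 95, 28 to 55, 46 to 70, 42 to 53 and 7 to 21 in the first 6 of these, while 34.5% to 38.8%, 31.7% to 47.8%, 29.7% to 49.2%, 35.3% to 50.7%, 11.9% to 16.1% and 8.46% to 21.5% of all genes did; with 1 library on each side this is only the sign. From 0 to 1 passed the test for the pTα label, while 0.00829% to 0.0912% of all genes passed lower and 0% to 0.0414% higher. With the replicate number as a block in LP minus L-DKO, 0 segments passed, as without it (0.00829% of all genes passed in each direction). The median of -1.12 cannot be changed by this block, as each group holds both replicate numbers. Depth is unknown, and wide gaps between replicates limit what single segments can show.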
